A study of Mus musculus with 17 samples.

Results

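The 10 genes described here encode receptors and ligands of the VEGF and angiopoietin systems: Flt1, Kdr, Flt4, Nrp1, Vegfa, Pgf, Tek, Tie1, Angpt1 and Angpt2. They were chosen by name from the 42687 genes of a count table made from microvessels of mouse cerebral cortex, and all 10 of 10 had enough counts to be tested. The 17 libraries came from wild type (WT) mice or from mice labelled APP, which the series design names APP/PS1, an amyloid model of Alzheimer's disease, at 10 to 11 months of age. They were injected intraperitoneally at 2-day intervals for 2 weeks with a peptide at 10 mg/kg: gp91-ds-tat, an inhibitor of the superoxide-producing NADPH oxidase NOX2, or sgp91-ds-tat, its control. The labels write these as NOX2 and SC. This gave 5 libraries of WT with control peptide, 5 of WT with inhibitor, 2 of APP/PS1 with control peptide and 5 of APP/PS1 with inhibitor. No group went without a peptide, and the protocol describes ipsilateral cortex taken after surgery without naming the surgery. The labels give neither the transgenic line nor its promoter, nor the number of animals behind a library or their sex, so p-values measure the spread between these libraries, which may be technical in part.

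VEGF-A signals to endothelial cells mainly through the tyrosine kinase receptor encoded by Kdr (VEGFR2), while the receptor encoded by Flt1 (VEGFR1) binds VEGF-A and placental growth factor tightly, signals weakly and limits the ligand that reaches VEGFR2. Angiopoietin 1, supplied by cells around the vessel, activates the endothelial receptor Tie2 (gene Tek) and stabilises vessels, whereas angiopoietin 2, stored and released by endothelial cells, can oppose it. In adult brain, where vessels are mostly quiescent, astrocytes are a known source of VEGF-A.

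Total counts per library were between 7316503 and 17862965. Levels are given as CPM, counts scaled to library sizes adjusted by the TMM method. Markers of the labelled cell types were present in every library: 8 of 8 endothelial markers (1596 to 2872 CPM summed), 6 of 6 pericyte markers (950 to 1643 CPM) and 6 of 6 astrocyte markers (2952 to 5092 CPM). All 6 neuronal markers were present too (2474 to 4162 CPM summed), and the summed level of 5 choroid plexus markers ran from 24.9 to 7945 CPM. Summed transcripts of 4 Y-linked genes were at 294 to 355 CPM in 7 libraries and at 0 to 22.6 CPM in the other 10. The higher level was in 3 of 5, 2 of 5, 1 of 2 and 1 of 5 libraries of the groups in the order above. The X-linked transcript Xist was at 13.5 to 668 CPM in those 7 and at 5614 to 10174 CPM in the other 10. Some libraries held both: replicate 3 of WT with inhibitor had 5614 CPM of Xist and 5.39 CPM of the Y-linked Ddx3y. The cause was not tested. Libraries are mixtures of cells, so fewer cells of a type and less RNA per cell cannot be told apart. Replicate 1 of WT with control peptide and replicate 3 of WT with inhibitor stood apart from the other 15 libraries in several of the 10 genes, as described below, and results that rest on them are given with and without them.

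Promoter sequences, from 250 bases before to 50 after the start site, are shown for the 5 genes on which the results turn: the receptors Kdr, Tek and Tie1, whose levels moved together over libraries, Flt1, the most abundant of the 10, and Vegfa, the main ligand. They were taken from RefSeq for build GRCm38.p6, in which 8 of the 10 genes matched an entry. Capitals mark GGAAG, or CTTCC where it lies on the other strand. GGAAG is a longer form of GGAA, the core bound by ETS transcription factors.
Kdr: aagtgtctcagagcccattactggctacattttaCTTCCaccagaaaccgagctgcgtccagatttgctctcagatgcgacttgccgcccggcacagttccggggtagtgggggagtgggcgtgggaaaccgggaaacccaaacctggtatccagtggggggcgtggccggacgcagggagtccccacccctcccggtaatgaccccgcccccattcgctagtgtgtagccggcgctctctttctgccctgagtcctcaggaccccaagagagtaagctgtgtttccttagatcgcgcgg
Tek: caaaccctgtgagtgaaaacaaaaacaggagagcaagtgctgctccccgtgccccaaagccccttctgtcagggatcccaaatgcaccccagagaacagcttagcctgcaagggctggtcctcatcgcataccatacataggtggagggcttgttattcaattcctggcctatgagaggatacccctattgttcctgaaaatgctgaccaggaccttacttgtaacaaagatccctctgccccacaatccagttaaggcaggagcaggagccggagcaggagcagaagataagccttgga
Tie1: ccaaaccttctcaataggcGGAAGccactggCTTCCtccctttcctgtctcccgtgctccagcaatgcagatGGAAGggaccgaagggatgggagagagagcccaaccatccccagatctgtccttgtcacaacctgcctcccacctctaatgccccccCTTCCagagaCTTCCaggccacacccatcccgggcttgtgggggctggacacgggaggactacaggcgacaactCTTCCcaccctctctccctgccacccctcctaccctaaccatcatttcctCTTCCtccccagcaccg
Flt1: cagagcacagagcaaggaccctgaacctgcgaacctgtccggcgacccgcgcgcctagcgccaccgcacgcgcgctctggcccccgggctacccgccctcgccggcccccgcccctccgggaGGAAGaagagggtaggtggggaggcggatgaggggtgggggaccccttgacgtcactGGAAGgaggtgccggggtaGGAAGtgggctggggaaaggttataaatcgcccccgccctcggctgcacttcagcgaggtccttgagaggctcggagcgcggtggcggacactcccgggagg
Vegfa: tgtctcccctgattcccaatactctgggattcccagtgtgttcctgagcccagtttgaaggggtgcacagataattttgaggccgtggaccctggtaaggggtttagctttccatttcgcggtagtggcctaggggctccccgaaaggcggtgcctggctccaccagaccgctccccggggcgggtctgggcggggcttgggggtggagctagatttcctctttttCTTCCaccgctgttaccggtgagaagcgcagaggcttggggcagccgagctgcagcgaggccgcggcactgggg
The windows lie at chr5:75978406-75978705 (minus strand) for Kdr, chr4:94739039-94739338 (plus) for Tek, chr4:118489800-118490099 (minus) for Tie1, chr5:147725962-147726261 (minus) for Flt1 and chr17:46032328-46032627 (minus) for the first of the Vegfa entries. GGAAG, counted on both strands, was found 7 times at Tie1, 3 times at Flt1, and 1 time each at Kdr and Vegfa, with 0 matches at Tek. Of all 32851 promoter windows of the same length, 71.4% held GGAAG, so its presence sets none of these windows apart. The shorter GGAA was not counted, and the Tek window does hold it on the other strand. ACGTG, the core of a hypoxia response element, had 0 matches in these 5 windows and was in 19.6% of all windows. The second Vegfa entry, not shown, held 1 match, at position -211 on the minus strand. That window, chr17:46025114-46025413, lies inside the gene, downstream of the first start site, so its match may fall in transcribed sequence. TATAAA was found at position -31 of Flt1 on the plus strand, with 0 matches in the other 4 windows, and was in 13.6% of all windows. Guanine and cytosine made up 52% of the Tek window, close to the median of 52.7% over all windows, against 60.3% to 70.7% in the other 4.

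The receptors of the VEGF family were led by Flt1 (ENSMUSG00000029648, chromosome 5, 147561604 to 147726011, minus strand; positions of genes are from GENCODE vM21 on GRCm38). Flt1 was at 1079, 1008, 1206, 1582 and 1021 CPM in WT with control peptide and at 1291, 1380, 1044, 1219 and 1139 CPM in WT with inhibitor. In APP/PS1 it was at 1242 and 1390 CPM with control peptide and at 991, 1473, 970, 818 and 1520 CPM with inhibitor. The 4 groups overlapped, and the highest and lowest of all libraries, 1.93-fold apart, were a WT and an APP/PS1 library. The counts are per gene, so the membrane receptor and the soluble form that Flt1 also encodes cannot be told apart.

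Kdr (ENSMUSG00000062960, chromosome 5, 75932827 to 75978458, minus strand) encodes the main signalling receptor of VEGF-A. It was at 83.9, 152, 212, 259 and 149 CPM in WT with control peptide and at 184, 192, 97.8, 187 and 179 CPM in WT with inhibitor. APP/PS1 libraries held 129 and 234 CPM with control peptide and 125, 251, 116, 133 and 229 CPM with inhibitor. Kdr thus varied 3.08-fold over libraries, more than Flt1, and its lowest values were those of the WT libraries named above, while every group also held a library at or above 192 CPM. The log2 ratio of Kdr to Flt1 averaged -2.86 ± 0.33 (SD, n = 17), and group means lay between -2.92 and -2.79.

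Flt4 (ENSMUSG00000020357, chromosome 11, 49609263 to 49652739, plus strand) encodes VEGFR3, the receptor of VEGF-C and VEGF-D, known best from lymphatic endothelium. Its level was 59.4 CPM ± 14 (SD, n = 5) in WT with control peptide, 59.9 ± 7.17 (n = 5) in WT with inhibitor, 59 ± 1.99 (n = 2) in APP/PS1 given control peptide, and 59.3 ± 16.6 (n = 5) in APP/PS1 with inhibitor. Its group means were the closest of the 10 genes, 1.02-fold from lowest to highest. Of the 4 lymphatic markers, Ccl21a had 0 counts in every library, while Prox1 was at 25.7 to 40.2 CPM, Pdpn at 10.5 to 34.2 CPM and Lyve1 at 1.17 to 12.2 CPM. Nrp1 (ENSMUSG00000025810, chromosome 8, 128358604 to 128503363, plus strand) encodes neuropilin 1, a co-receptor of VEGF-A and of semaphorins. It was at 80, 92.6, 103, 122 and 99.9 CPM in WT with control peptide, at 109, 126, 77.4, 102 and 104 CPM in WT with inhibitor, at 112 and 113 CPM in APP/PS1 with control peptide, and at 99.9, 121, 114, 107 and 133 CPM in APP/PS1 with inhibitor. Mean Nrp1 over APP/PS1 libraries was 114 CPM ± 10.4 (SD, n = 7), and over WT libraries 102 CPM ± 15.8 (SD, n = 10), with overlapping ranges.

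**Figure D1:**
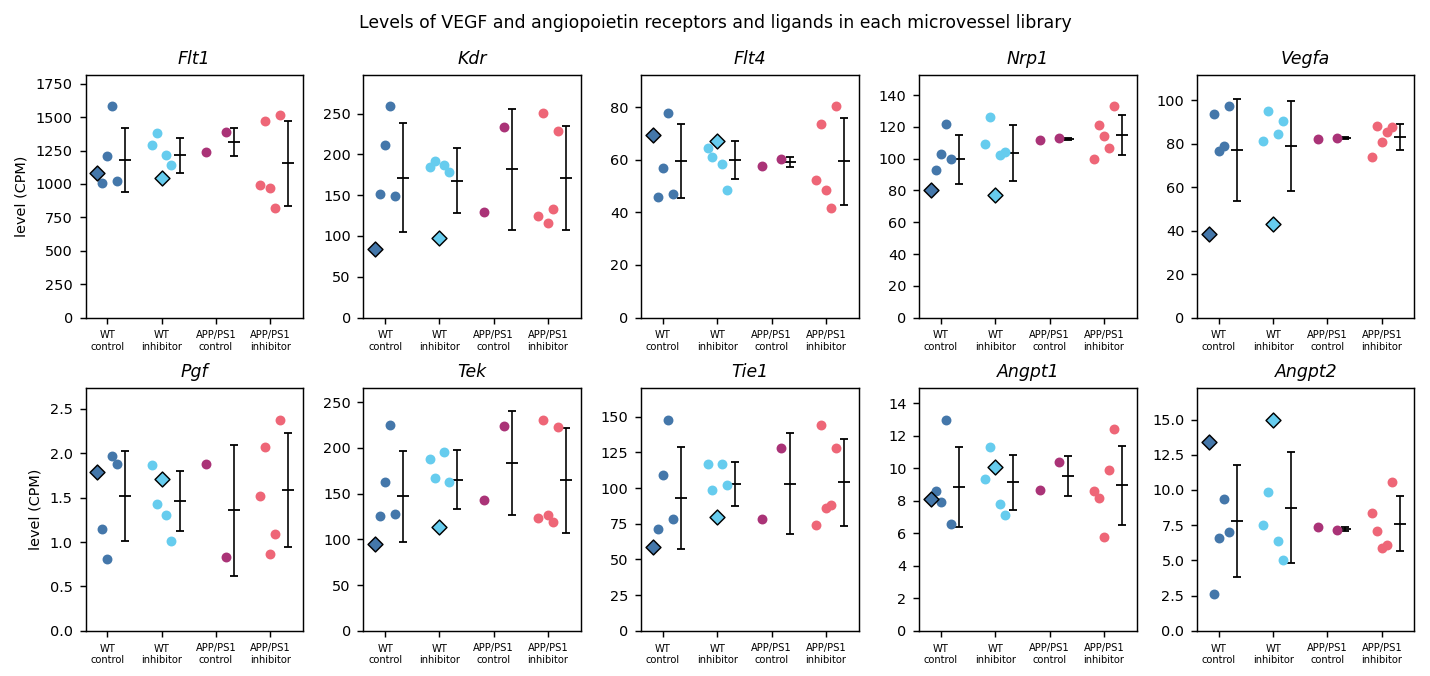
Level of each of the 10 genes in CPM (vertical axis, from 0) in each of the 17 libraries (points) by group (horizontal axis), with mean and SD beside the points. Diamonds mark WT control replicate 1 and WT inhibitor replicate 3; they are the lowest points for Kdr, Nrp1, Vegfa and Tek and the highest for Angpt2, while the 4 groups overlap for every gene.

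Of the VEGF ligands, Vegfa (ENSMUSG00000023951, chromosome 17, 46016993 to 46032369, minus strand) was at 38.6, 93.9, 76.9, 78.8 and 97.3 CPM in WT with control peptide and at 81.3, 95.1, 43.1, 84.7 and 90.6 CPM in WT with inhibitor. It was at 82.2 and 82.8 CPM in APP/PS1 with control peptide and at 74, 88.1, 81, 85.5 and 87.8 CPM in APP/PS1 with inhibitor. Apart from a pair of WT libraries at 38.6 and 43.1 CPM, all 15 values lay between 74 and 97.3 CPM. The log2 ratio of Vegfa to Flt1 averaged -3.92 ± 0.41 (SD, n = 17). Pgf (ENSMUSG00000004791, chromosome 12, 85166635 to 85177790, minus strand) encodes placental growth factor, a ligand of VEGFR1. Its level, from 0.813 to 2.38 CPM, rested on 8 to 31 counts per library, so the counts limit what can be said of it.

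Tek (ENSMUSG00000006386, chromosome 4, 94739289 to 94874976, plus strand) encodes Tie2. It was at 94.6, 126, 163, 225 and 128 CPM in WT with control peptide and at 188, 167, 113, 196 and 163 CPM in WT with inhibitor. In APP/PS1 it was at 143 and 224 CPM with control peptide and at 123, 231, 127, 119 and 223 CPM with inhibitor. In APP/PS1 with inhibitor, 3 libraries lay between 119 and 127 CPM and 2 at 223 and 231 CPM, and the WT range, 94.6 to 225 CPM, covered all of these but the last. Tie1 (ENSMUSG00000033191, chromosome 4, 118471191 to 118490061, minus strand) encodes a receptor with no high-affinity ligand of its own that modulates Tie2. It lay between 58.7 and 148 CPM in WT libraries and between 74.1 and 144 CPM in APP/PS1 libraries.

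The ligands of Tie2 were low. Angpt1 (ENSMUSG00000022309, chromosome 15, 42424723 to 42676977, minus strand) averaged 8.99 CPM ± 1.97 (SD, n = 10) in WT and 9.12 CPM ± 2.06 (SD, n = 7) in APP/PS1, from 53 to 174 counts per library. The antisense gene Gm17473 overlaps Angpt1 exons over 737 bases and held 1 to 8 counts per library. Whether the counting used strand is not given in the sources used here, so reads of the overlap cannot be assigned with certainty. Angpt2 (ENSMUSG00000031465, chromosome 8, 18690263 to 18741562, minus strand) was at 13.4, 2.62, 6.6, 9.38 and 7.01 CPM in WT with control peptide and at 7.48, 9.86, 15, 6.37 and 5.05 CPM in WT with inhibitor. It was at 7.34 and 7.15 CPM in APP/PS1 with control peptide and at 8.34, 7.09, 5.86, 6.08 and 10.6 CPM in APP/PS1 with inhibitor. Angpt2 had the widest range of the 10 genes, 5.72-fold, and both extremes were WT libraries; it rested on 25 to 231 counts. The log2 ratio of Angpt2 to Angpt1 was -0.25 ± 0.52 (SD, n = 17), with group means from -0.39 to -0.15.

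Compared per kilobase of exon, since genes differ in length, the median level over the 17 libraries was 89.3 CPM per kb for Flt1, 34.6 for Tek, 20.1 for Tie1, 19.9 for Kdr, 19.3 for Vegfa, 11 for Nrp1, 7.09 for Flt4, 1.94 for Angpt2, 1.65 for Angpt1 and 0.522 for Pgf. The ranges over libraries separated Flt1 from Tek, Flt4 from Angpt2, and Angpt1 from Pgf. Tek was above Tie1, and Vegfa above Nrp1, in 17 of 17 libraries, although the ranges of each pair over libraries overlapped. Neighbours with no fixed order were Tie1 and Kdr (Tie1 higher in 13 of 17 libraries), Kdr and Vegfa (Kdr higher in 9 of 17), Nrp1 and Flt4 (Nrp1 higher in 15 of 17), and Angpt2 and Angpt1 (Angpt2 higher in 13 of 17). In CPM per kb the VEGF and Tie receptor genes were therefore all above the Tie2 ligands and Pgf. For each of the 10 genes, all 3 neighbouring pairs of groups in the order of group means overlapped, and the highest group mean was 1.02 (Flt4) to 1.25 (Tek) times the lowest.

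Genotype was compared over both peptides first, to ask whether the VEGF and angiopoietin genes differed in microvessels of the amyloid model. None of the 10 genes did so past an adjusted p of 0.05: 0 of 10 in the quasi-likelihood test of edgeR (Benjamini-Hochberg, over all 18753 genes tested), in which 0.587% of all genes passed (110 genes). By DESeq2 and by limma voom 0 of 10 passed as well, where 176 and 163 of all genes did. By edgeR 0 of 10 had an unadjusted p under 0.05, against 1197 of all 18753 genes. The 7 APP/PS1 and 10 WT libraries had ranges that did not overlap for 0.272% of all genes, and for 0 of the 10. The log2 change, APP/PS1 minus WT, was 0.01 for Flt1 (95% interval -0.27 to 0.29), 0.05 for Kdr (-0.41 to 0.50) and -0.01 for Flt4 (-0.29 to 0.27). For Tek it was 0.11 (-0.27 to 0.50) and for Tie1 0.07 (-0.30 to 0.43). Among ligands it was 0.09 for Vegfa (-0.24 to 0.42), 0.03 for Pgf (-0.49 to 0.55), 0.02 for Angpt1 (-0.30 to 0.34) and -0.18 for Angpt2 (-0.70 to 0.34). Nrp1 had the smallest p of the 10, with a log2 change of 0.16 ± 0.09 (SE, interval -0.04 to 0.35, edgeR adjusted p = 0.863). The intervals reach down to 0.617-fold for Angpt2 and up to 1.46-fold for Pgf, and were narrower for Flt1 (0.831 to 1.22-fold) and Nrp1 (0.974 to 1.28-fold). The median change was 0.04 over the 10 genes and 0.00 over all genes. With the microglia marker score as a covariate, 0 of the 10 genes and 8 of all genes passed, and 7 of the 10 estimates changed sign. Among them the log2 change was -0.62 ± 0.18 (SE) for Flt1, -0.75 ± 0.36 for Kdr, -0.72 ± 0.28 for Tek and -0.67 ± 0.28 for Tie1, below the intervals given above. The microglia score itself differed with genotype, at 4.11 to 4.50 in WT and 4.45 to 5.26 in APP/PS1 libraries. Genotype and microglial RNA therefore cannot be told apart in this fit.

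**Figure D2:**
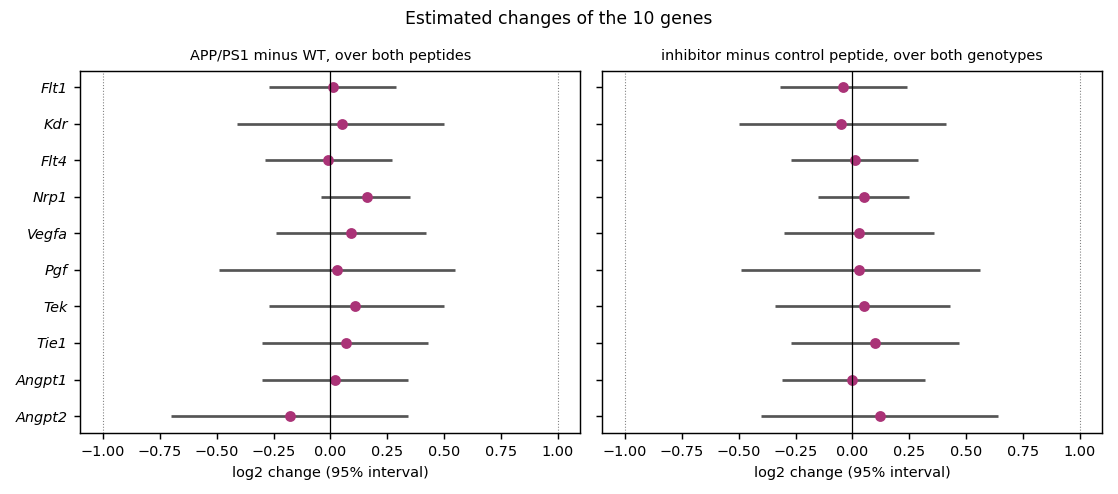
Estimated log2 change (points) with 95% interval (bars) of each gene for APP/PS1 minus WT over both peptides (left) and inhibitor minus control peptide over both genotypes (right); the solid line is at 0 and the dotted lines are at changes of -1 and 1. Every interval includes 0, and the widest are those of Pgf and Angpt2.

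Within each peptide no difference between the genotypes passed for the 10 genes. With control peptide, where APP/PS1 has 2 libraries, 0 of 10 passed (0.0533% of all genes did), with log2 changes from -0.15 to 0.32 and intervals reaching from -1.02 to 0.96. With inhibitor 0 of 10 passed (0.181% of all genes did), with changes from -0.20 to 0.15 and intervals reaching from -0.88 to 0.81. For both comparisons 0 of 10 had an unadjusted p under 0.05, against 745 of all 18753 genes with control peptide and 634 with inhibitor.

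The inhibitor comparison asks whether blocking NOX2 moved these genes. Over both genotypes 0 of 10 passed by edgeR's quasi-likelihood test, where 0% of all genes did, and the log2 changes, inhibitor minus control peptide, ran from -0.05 for Kdr to 0.12 for Angpt2. Tie1, at 0.10 (interval -0.27 to 0.47), had the smallest p of the 10 (edgeR adjusted p = 1). Separately, 0 of 10 passed in WT, with changes from -0.08 to 0.17, and 0 of 10 in APP/PS1, with changes from -0.19 to 0.21 and intervals reaching from -0.86 to 1.08. The difference between these inhibitor effects (the interaction) was between -0.32 and 0.28 for the 10 genes, with intervals from -1.18 to 1.39, and 0 of 10 passed. Each of these comparisons called 0% of all genes, while 396 (over both genotypes), 252 (in WT), 338 (in APP/PS1) and 158 (interaction) genes had an unadjusted p under 0.05, with 0 of the 10 genes among them. DESeq2 and limma voom also called 0 of the 10 genes.

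The other genes of these pathways were taken from 7 lists with 87 genes, of which 85 were tested. In the genotype comparison over both peptides, 2 passed, both in the list of hypoxia-inducible factor (HIF) targets and both higher in APP/PS1. Pfkfb3, a regulator of glycolysis studied in sprouting endothelium, averaged 31.5 CPM ± 3.77 (SD, n = 10) in WT and 44.3 CPM ± 5.96 (SD, n = 7) in APP/PS1, and its log2 change by edgeR was 0.49 ± 0.09 (SE, adjusted p = 0.0101). WT libraries lay between 25.7 and 38.1 CPM and APP/PS1 libraries between 35.3 and 52.5 CPM, overlapping at their edges. Hk2, a hexokinase of the first step of glycolysis, averaged 4.17 CPM ± 1.03 (SD, n = 10) in WT and 7.64 CPM ± 2.26 (SD, n = 7) in APP/PS1, and its log2 change by edgeR was 0.87 ± 0.19 (SE, adjusted p = 0.0304). WT libraries lay between 2.93 and 6.28 CPM and APP/PS1 libraries between 4.42 and 10.1 CPM. The 13 other HIF targets did not pass, and the median change of the list of 15 was 0.02, beside 0.00 over all genes. Slc2a1, the glucose transporter of the blood-brain barrier and another HIF target, had a log2 change of -0.05 (interval -0.54 to 0.44).

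Microglial RNA differed along with these genes: all 6 microglial markers were present in every library, at 205 to 385 CPM summed in APP/PS1 and 171 to 238 CPM in WT. With the microglia score as a covariate, the log2 changes were 0.12 for Hk2 (edgeR adjusted p = 0.876) and 0.14 for Pfkfb3 (adjusted p = 0.657), so neither call was kept. Since that score nearly separates the genotypes, this fit cannot tell genotype from microglial RNA. The call of Hk2 was also lost on leaving out any 1 of 10 of the 17 libraries (adjusted p up to 0.2, without replicate 2 of APP/PS1 with control peptide), with log2 changes of 0.76 to 0.99 over the 17 fits. That of Pfkfb3 was lost on leaving out replicate 1 of APP/PS1 with control peptide (adjusted p = 0.0674), with log2 changes of 0.41 to 0.53 over the 17 fits. With a single peptide neither gene passed: the adjusted p was 0.102 for Pfkfb3 and 0.796 for Hk2 with control peptide, and 0.662 and 0.516 with inhibitor.

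No gene of the other 6 lists passed for genotype. Among 10 other VEGF and neuropilin ligands and receptors, 0 had an unadjusted p under 0.05 and the median change was 0.01; the 2 smallest p-values were those of Nrp2, a co-receptor of VEGF-C (log2 change 0.15, interval -0.05 to 0.36), and Sema3f, a ligand of neuropilins (-0.09, interval -0.34 to 0.15). Of 9 tested genes of the Tie pathway the median was -0.04, and Angptl4, a secreted inhibitor of lipoprotein lipase related to the angiopoietins, had a log2 change of -1.57 (interval -2.83 to -0.32, edgeR adjusted p = 0.59). Ptprb, the endothelial phosphatase VE-PTP that acts on Tie2, had a change of 0.14 (interval -0.23 to 0.50); it was chosen for its role after values were seen. The 19 genes that carry the VEGF receptor signal had a median of 0.03 and 0 unadjusted p-values under 0.05. The 12 tested VEGF-induced and tip cell genes had the highest median, 0.21, with 3 unadjusted p-values under 0.05, beside 1197 of 18753 over all genes. Of these, Plaur, the urokinase receptor, had a log2 change of 0.91 (interval 0.21 to 1.60, adjusted p = 0.536) and Aplnr, the apelin receptor, 0.78 (interval 0.07 to 1.49, adjusted p = 0.709). The median was -0.02 over 8 HIF regulators and 0.12 over 12 endothelial transcription factors, of which Klf4, a factor responsive to shear stress, had the smallest p (log2 change 0.49, interval 0.01 to 0.97, adjusted p = 0.776).

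For the inhibitor, 0 of 85 tested pathway genes passed over both genotypes, in WT, in APP/PS1 or for the interaction. Dok2, an adaptor that binds activated Tie2, had the smallest p of the 85 over both genotypes (log2 change 0.56, interval 0.08 to 1.04, edgeR adjusted p = 1).

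Although the groups overlapped, libraries differed in how the 10 genes stood to each other. Of 45 pairs of genes, 17 had a Pearson correlation of log2 CPM over the 17 libraries past an adjusted p of 0.05 (permutation test with 100000 resamples, two-sided, adjusted over the 45 pairs). By Spearman's rho 14 passed, on deviations from group means 12, and without the 2 libraries farthest from the median 15. The share that would pass among pairs of all genes was not computed, and genes outside the 10 reached r as high, as given below. Kdr, Tek and Tie1 moved together: r was 0.96 for Tek and Tie1 (rho = 0.90), 0.94 for Kdr and Tek (rho = 0.93) and 0.91 for Kdr and Tie1 (rho = 0.87). Permutation p was 1.00e-05 for each r, the smallest these resamples can give (adjusted p = 1.12e-04), and at most 2.00e-05 for each rho. On deviations from group means r was 0.97, 0.96 and 0.93 for these pairs. Without the 2 libraries farthest from the median it was 0.94, 0.92 and 0.86, and without both WT libraries that stood apart it was 0.95, 0.92 and 0.90. Flt1 followed the same libraries, with r = 0.85 for Tek (rho = 0.86, adjusted p = 1.12e-04) and 0.81 for Flt4 (rho = 0.80, adjusted p = 0.00135), and these pairs passed in every form computed.

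**Figure D3:**
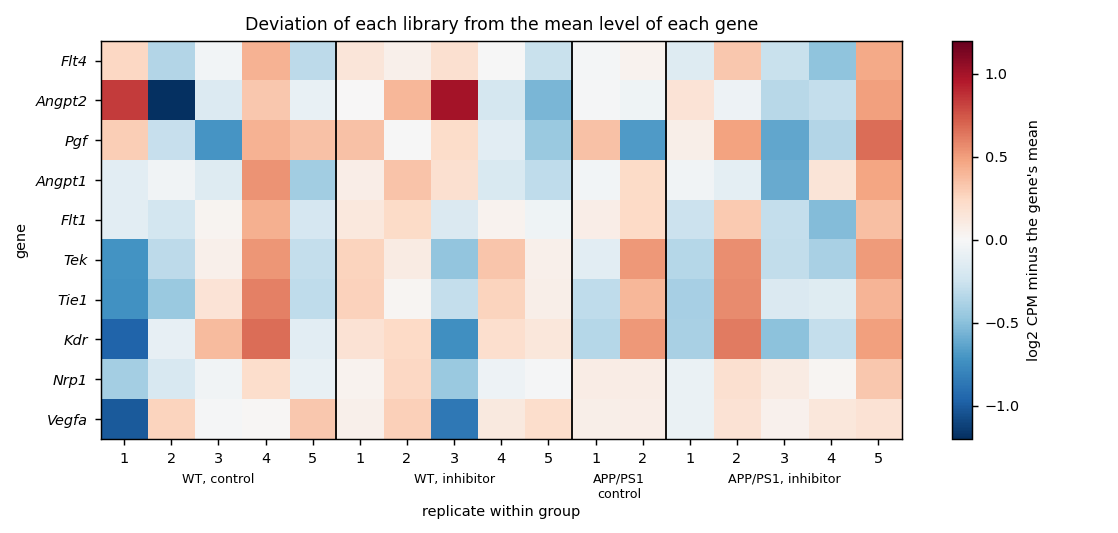
Log2 CPM of each gene (rows) in each library (columns, by group and replicate) minus the mean of that gene over the 17 libraries; red is above and blue below the mean. Tek, Tie1 and Kdr share their pattern over libraries, and WT control replicate 1 and WT inhibitor replicate 3 are low for these genes, Nrp1 and Vegfa and high for Angpt2.

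For Vegfa the relations to the receptors were mixed: its r was 0.20 with Flt1 (adjusted p = 0.57) and 0.52 with Tek (adjusted p = 0.0623). It passed with Nrp1 (r = 0.73, rho = 0.28, adjusted p = 0.0126), with Kdr (r = 0.65, rho = 0.37, adjusted p = 0.0125) and, inversely, with Angpt2 (r = -0.65, rho = -0.45, adjusted p = 0.021). None of these rhos passed (adjusted p from 0.155 to 0.37). Without the WT libraries at 38.6 and 43.1 CPM, r was 0.00, 0.05 and -0.28, so each of the 3 relations rests on those libraries. Angpt2 instead moved with Flt4 (r = 0.67, rho = 0.77, adjusted p = 0.00982), also without those libraries (r = 0.65, adjusted p = 0.016).

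The levels were next set against 15 marker lists of cell types, scored as the mean log2 CPM of the list. Of 150 relations, 32 passed at an adjusted p of 0.05 (permutation test, two-sided, adjusted over the 150). By rho 29 passed, on deviations from group means 24, and without the 2 libraries farthest from the median score 18. The share that would pass over all genes was not computed. Flt1 followed the endothelial score with r = 0.95 (rho = 0.96, adjusted p = 3.00e-04), and Flt4 with r = 0.89 (rho = 0.87, adjusted p = 3.00e-04). Without the 2 farthest libraries r was 0.93 and 0.84, and on deviations from group means 0.95 and 0.90. Tie1 and Tek were closest to the arterial score, with r = 0.93 (rho = 0.91) and 0.91 (rho = 0.92), each with an adjusted p of 3.00e-04, and with r = 0.90 for both without the 2 farthest libraries. Kdr followed the arterial score with r = 0.80 (rho = 0.82, adjusted p = 0.002; 0.80 without the 2 farthest). Without both WT libraries that stood apart, r for Tek was 0.95 with the endothelial and 0.93 with the arterial score. For Kdr these were 0.87 and 0.82, with 0.91 for the pericyte score, and for Tie1 they were 0.89 and 0.92. The order of the scores for Tek and Kdr thus rests on those libraries. The marker lists were scored in the same libraries, and the pericyte score also gave r = 0.94 for Flt1 and 0.83 for Tek, so a source cell cannot be read from these values.

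For Vegfa the endothelial score gave r = -0.01 (adjusted p = 0.984) and the astrocyte score r = 0.23 (rho = 0.21, adjusted p = 0.586). Its relation to the erythroid score (r = 0.78, rho = 0.44, adjusted p = 0.0123) was 0.23 without the WT libraries that stood apart, which had the lowest erythroid scores. Nrp1 kept its relation to that score without them (r = 0.71, adjusted p = 0.0173, against r = 0.88 with all). Kdr (r = 0.67, adjusted p = 0.0185) and Tek (r = 0.59, adjusted p = 0.0498) also passed with the erythroid score. Without those libraries their r was 0.34 and 0.32. The erythroid list was thinly covered: 2 of 5 markers had counts in every library, and Hba-a1 and Hba-a2 had a median of 0. Flt4 passed with the lymphatic list (r = 0.70, rho = 0.77, adjusted p = 0.0128), also without the 2 farthest libraries (0.69, adjusted p = 0.0377). Vegfa passed inversely with the lymphatic list (r = -0.72, rho = -0.48, adjusted p = 0.00971), with r = -0.23 without both WT libraries that stood apart. Pgf, at low counts, passed with the lymphatic list by r (0.61, adjusted p = 0.0442) but not by rho (0.58, adjusted p = 0.0783). On deviations from group means its r was 0.61 (adjusted p = 0.0743), and without the 2 farthest libraries 0.60 (adjusted p = 0.113). Without both WT libraries that stood apart, r for Pgf was 0.66 (adjusted p = 0.0373). Angpt2 passed with that list only (r = 0.78, rho = 0.80, adjusted p = 0.00259; 0.71 without the 2 farthest libraries), in which Ccl21a was at 0 and Prox1 and Pdpn are also expressed by neural cells. With the fibroblast score 5 of the 10 genes passed: Tie1 (r = 0.75), Tek (0.72), Flt1 (0.66), Angpt1 (0.63) and Flt4 (0.61). Their adjusted p was 0.0068 to 0.0455. Of these, Tie1 (0.73) and Tek (0.74) also passed without the 2 farthest libraries. Nrp1 passed with the astrocyte score (r = 0.67, adjusted p = 0.0222). Flt4 passed with the oligodendrocyte precursor score (r = 0.65, adjusted p = 0.0267). Without the 2 farthest libraries neither did (0.61 and 0.55). By r over all 17 libraries, none of the 10 genes passed with the neuronal, microglial, choroid plexus, venous, smooth muscle, oligodendrocyte or neutrophil scores. By rho, Nrp1 passed with the microglial score (0.65, adjusted permutation p = 0.0344). Without both WT libraries that stood apart, Nrp1 passed with it by r too (0.66, adjusted p = 0.0345). In that form Vegfa passed with the venous score (r = 0.67, adjusted p = 0.0288) and Angpt2 with the smooth muscle score (r = 0.64, adjusted p = 0.0299).

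**Figure D4:**
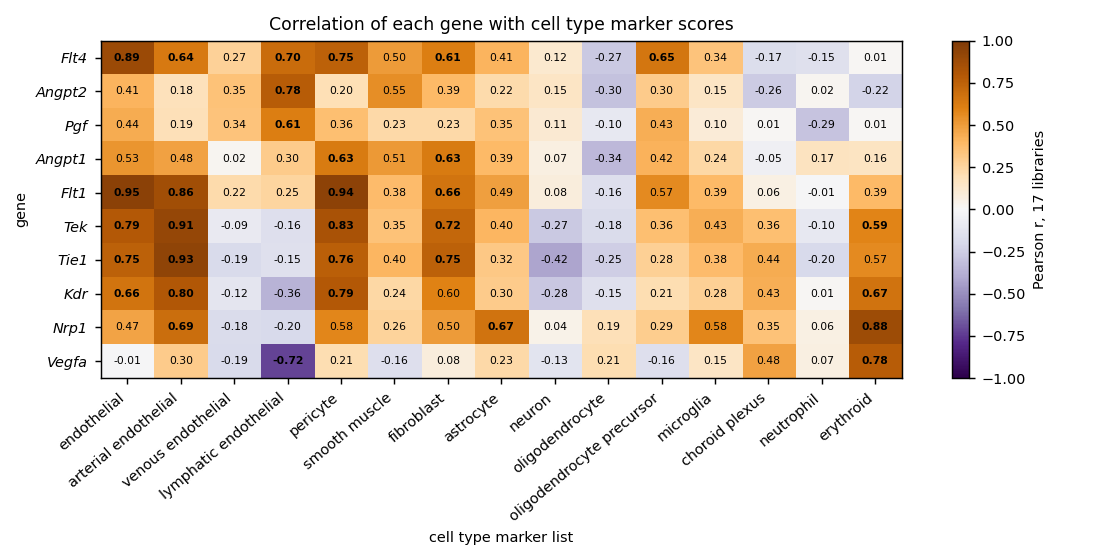
Pearson r of the log2 CPM of each gene (rows) with the score of each marker list (columns) over 17 libraries; bold values had an adjusted permutation p under 0.05. Flt1 and Flt4 have their highest values with the endothelial list (0.95 and 0.89), Tek and Tie1 with the arterial list (0.91 and 0.93), and Vegfa is at -0.01 with the endothelial list.

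The genes most like each of the 10 were found from r of deviations from group means over the 17 libraries, among all genes tested. For Flt1 they were Cdh5, the cadherin of endothelial junctions, Wwtr1 and Kitl (each r = 0.97), and for Flt4 Pecam1 and Robo4 (0.97) and Adgrf5 (0.96). For Kdr they were Tek, Gm45552 and Cxcl12 (each 0.96), for Tek Ablim1 (0.98), Tie1 (0.97) and Kdr (0.96), and for Tie1 Hspg2, Fzd6 and Ctnnb1 (each 0.98). Nrp1 was nearest to Cxcl12, Gkn3 and Bsg (each 0.91). Without the WT libraries that stood apart, those 3 values for Nrp1 were 0.81, 0.82 and 0.79. For Vegfa the nearest were Gm42495 (0.90), Vav3 (0.87) and Alas2 (0.86), an enzyme of haem synthesis in erythroid cells. Without the same libraries these were -0.03, 0.60 and 0.37, so the neighbours of Vegfa rest on those libraries. For Angpt2 they were Net1, Srp68 and Elmsan1 (each 0.90, and 0.86, 0.84 and 0.83 without those libraries). For Angpt1 they were Cstb (0.91), Klhl13 (0.90) and Add1 (0.87), and for Pgf, at 8 to 31 counts, Dmrt2 (0.89), Gstm5 (0.87) and Ass1 (0.84). All these values were picked as the highest out of 18753 genes over 17 libraries and were not tested. The highest r that unrelated genes would reach was not computed, so the lower of these values may not reflect shared variation.

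The WT libraries that stood apart, 1 with each peptide, were outside the range of the other 15 for 5 of the 10 genes. They were singled out by their values for these same genes, Vegfa first. The share of all genes for which they were outside was not counted, so the 5 cannot be set against a background. Vegfa was at 38.6 and 43.1 CPM against 74 to 97.3 CPM, Kdr at 83.9 and 97.8 against 116 to 259 CPM, Nrp1 at 80 and 77.4 against 92.6 to 133 CPM, and Tek at 94.6 and 113 against 119 to 231 CPM. Angpt2 was at 13.4 and 15 CPM against 2.62 to 10.6 CPM. Flt1 (1079 and 1044 CPM), Flt4 (69.4 and 67.2 CPM), Pgf and Angpt1 were within the range of the others, and Tie1 was below it in 1 of these libraries (58.7 CPM) and inside it in the other (79.5 CPM). The same libraries were above all others for Fkbp5 (65.7 and 95.8 against 8.71 to 29.2 CPM), Plin4 (170 and 148 against 7.6 to 37.7 CPM), Zbtb16 (232 and 226 against 56.1 to 153 CPM) and Sgk1 (278 and 206 against 61.7 to 177 CPM), genes known to respond to glucocorticoids and chosen here after their values were seen. Tsc22d3, another such gene, was at 121 and 116 CPM, within the 31.1 to 134 CPM of the others. Slc2a1 was at 1507 and 1385 against 500 to 1255 CPM. The part of these genes in the levels of the 10 was not tested. Leaving out both libraries, 0 of the 10 genes passed for genotype over both peptides, and the log2 change was -0.08 for Vegfa, -0.11 for Kdr and 0.11 for Angpt2.

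**Figure D5:**
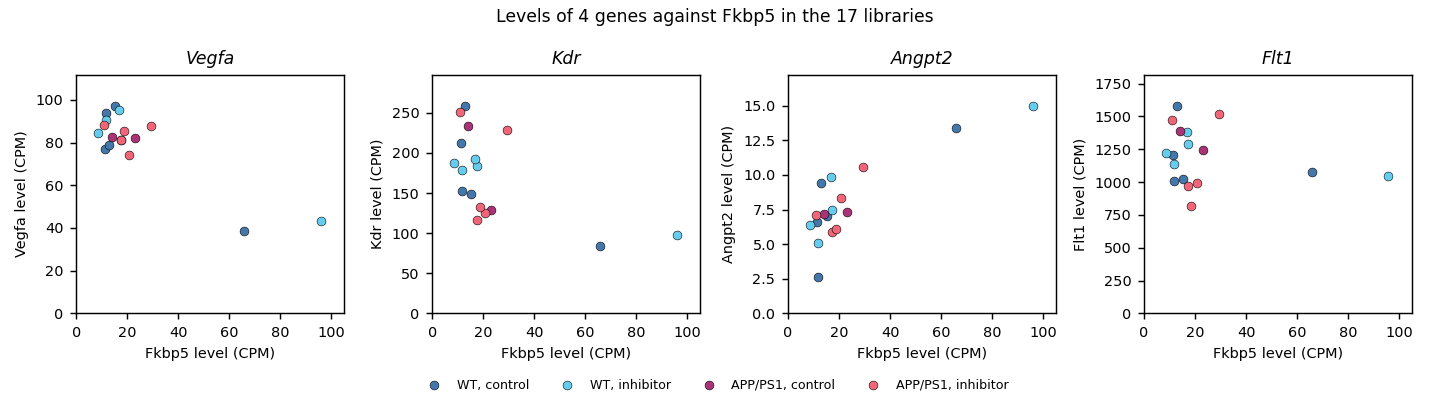
Levels of Vegfa, Kdr, Angpt2 and Flt1 (vertical axes, CPM) against Fkbp5 (horizontal axes, CPM) in the 17 libraries, coloured by group. WT control replicate 1 and WT inhibitor replicate 3, at 65.7 and 95.8 CPM of Fkbp5, lie below the other libraries for Vegfa and Kdr, above them for Angpt2 and among them for Flt1.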

How the data were processed

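RNA of cortical microvessels, collected by centrifugation through dextran, was sequenced after depletion of ribosomal RNA; the library kit was stranded, according to the labels. The authors deposited raw counts per Ensembl gene; the submitters' processing notes name cutadapt, STAR, HTSeq and DESeq2, and the builds mm10 and GRCh37, without versions or roles. The counting's strand setting and annotation are not given in the sources used here, and 20 columns that matched no sample were not used. Of 42687 IDs, 42250 matched a symbol in GENCODE vM21. Of 136 library pairs, 0 were identical.

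Genes were kept with filterByExpr (18753) and tested over all 17 libraries with edgeR 4.0.16 (TMM, quasi-likelihood F test, Benjamini-Hochberg over all genes, threshold 0.05), in a model with 1 mean per group and an additive model of genotype and peptide. log2 CPM used a prior count of 2. Alternatives were DESeq2 1.42.0, limma 3.58.1 voom, other scaling and filters, marker covariates and left-out libraries. The models were tested on simulated data. Correlations used permutation tests (scipy 1.17.1).

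The 10 genes, the 7 pathway lists and the 15 marker lists were chosen with earlier results of these data known. Of each pathway list, up to 3 called genes in each direction or, with none called, the 2 with the smallest p could be named, and not all were; others were chosen after their values were seen.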

Additional observations from a re-analysis of the deposited data

Results flagged for a closer look

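The levels and ratios of the 10 genes were examined for a single library far from the rest of its group, by Dixon's test: the gap to the nearest library divided by the range, with a critical value of 0.71 for 5 libraries. Of 39 such tests 6 passed, where 1.95 would by chance, and all 6 lie in the pair of WT libraries that stood apart. The ratios share values with the levels, so the tests are not independent. That pair was itself singled out by these genes, so where the 6 lie is no separate evidence. In WT with control peptide, replicate 1 was low for Vegfa (log2 CPM 5.28 against 6.27 to 6.61, gap over range 0.745) and for the log2 ratio of Kdr to Flt1 (-3.68 against -2.78 to -2.51, 0.769). In WT with inhibitor, replicate 3 was low for Vegfa (5.43 against 6.35 to 6.57, 0.802), for Kdr (6.61 against 7.49 to 7.59, 0.901) and for the log2 ratio of Kdr to Flt1 (-3.42 against -2.85 to -2.67, 0.759). That library was also high for the log2 ratio of Angpt2 to Angpt1 (0.56 against -0.50 to -0.20, 0.712).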

How the results depend on the processing

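No paired analysis was possible because the labels give no replicate numbers: those used here only follow the sample order. For all 7 comparisons 0 of the 10 genes passed under every alternative run. Estimates that were near 0 in the main fit changed sign for genotype over both peptides. With the microglia score as a covariate, the log2 change was -0.62 ± 0.18 for Flt1 (SE, edgeR adjusted p = 0.117), away from 0 though not past the threshold. In the same fit log2 changes were -0.75 ± 0.36 for Kdr, -0.12 ± 0.16 for Nrp1, -0.36 ± 0.44 for Pgf, -0.72 ± 0.28 for Tek, -0.67 ± 0.28 for Tie1 and -0.36 ± 0.26 for Angpt1. With both WT libraries that stood apart left out (chosen after seeing the data), they were -0.03 for Flt1, -0.11 for Kdr, 0.04 for Flt4, -0.08 for Vegfa, -0.0002 for Tek, -0.03 for Tie1 and 0.11 for Angpt2. By limma voom they were 0.03 for Flt4 and 0.06 for Angpt2. Leaving out each library in turn gave -0.05 to 0.08 for Flt1, -0.08 to 0.14 for Kdr, -0.09 to 0.05 for Flt4, -0.01 to 0.13 for Vegfa, -0.09 to 0.18 for Pgf, -0.02 to 0.18 for Tek, -0.05 to 0.15 for Tie1 and -0.06 to 0.09 for Angpt1. The cause was not tested.

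Over all genes, the 110 calls for genotype became 176 by DESeq2, 8 with the microglia score, and 70 to 125 on leaving out a library (70 without replicate 2 of APP/PS1 with control peptide). With control peptide, 10 calls became 35 by DESeq2, 43 by voom, 16 with the endothelial score, 1 with the microglia score, 23 with a Y-linked transcript score (added after seeing the data) and 4 to 17 on leaving out a library. With inhibitor, 34 became 61, 54 with the endothelial score, 2 with the microglia score, and 15 to 38. The 32 relations to marker scores became 18 without the 2 libraries farthest from the median score, which leaves fewer libraries. Leaving out both WT libraries was not run for the inhibitor in APP/PS1, which uses neither. Depth limits Pgf, at 8 to 31 counts, and Angpt2.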
